A study of Mus musculus with 23 samples.

Results

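The core circadian clock genes are a set of 10 genes, chosen by symbol as Clock, Npas2, Bmal1, Per1, Per2, Per3, Cry1, Nr1d1, Nr1d2 and Dbp, out of the 65535 genes of the deposited table. They were followed in RNA from whole mouse liver, in which transcripts are counted at their 3′ ends. The KO animals belong to the line 129/Sv-Cyp2e1tm1Gonz/J, which carries a disrupted Cyp2e1 gene, and the WT animals to the line 129S1/SvImJ. Libraries numbered 5 for Female WT and 6 for each of Male WT, Female KO and Male KO. All animals were co-housed on normal chow, and the labels disagree on age, with 12 to 13 weeks under growth and 16 weeks elsewhere. The KO and WT animals come from separate lines, so the allele and other differences between the lines cannot be told apart. The time of day at which the livers were taken is not given in the sources used here. The labels call the libraries biological replicates without naming animals, litters or batches.

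The clock of a liver cell is a transcriptional loop with a period of about a day. CLOCK, or its relative NPAS2, pairs with BMAL1 and switches on genes whose regulatory regions hold E-box motifs, among them the Per, Cry, Nr1d and Dbp genes. PER and CRY proteins return to the nucleus and block that pair, while the nuclear receptors REV-ERBα (Nr1d1) and REV-ERBβ (Nr1d2) repress Bmal1, Npas2 and, to a lesser degree, Clock and Cry1. DBP binds D-box motifs and passes the rhythm on to metabolic genes, which makes it a usual marker of clock output in liver. In mouse liver the transcripts follow each other through the day in a fixed order, with Bmal1 and Npas2 far from Dbp, so their relative levels depend on the hour of sampling.

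The libraries held 1538889 to 9874733 counts (median 4658677), and Male KO replicate 3 was the smallest. Of the 10 clock genes, 8 passed the filter on low counts that left 11370 genes for testing, and Npas2 and Bmal1 did not. Cyp2e1 was at 398 ± 63.4 CPM (the deposited counts scaled to the library total; SD, n = 5) in Female WT and 26.3 ± 7.29 (n = 6) in Female KO. It was at 476 ± 54.0 CPM (n = 6) in Male WT and 32.4 ± 13.1 (n = 6) in Male KO, and the KO and WT libraries did not overlap. Transcripts of the 5 hepatocyte markers summed to between 58818 and 84217 CPM in every library, and those of 5 lymphocyte markers to between 1.36 and 5.75 CPM. Because these are bulk samples, fewer cells of a type and less RNA per cell cannot be told apart. RefSeq windows of 250 bases before the start of transcription (build GRCm38.p6) were found for 9 of the 10 genes, with 13 windows in all, and none was found for Per2.

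The 4 windows printed here were chosen because a clock motif was found in them. The motifs were searched on both strands, namely the E-box CACGTG, the E′-box CACGTT, the D-box TTATGTAA or TTACGTAA, and the half-site of the ROR and REV-ERB receptors, TAGGTCA or TGGGTCA. Capitals mark matches, and an E′-box on the other strand reads AACGTG. They are given 5′ to 3′ along the gene for Per1 (chr11:69098699-69098948, plus strand), Per3 (chr4:151044666-151044915, minus strand), Cry1 (chr10:85185055-85185304, minus strand) and Nr1d1 (chr11:98775378-98775627, minus strand).
Per1: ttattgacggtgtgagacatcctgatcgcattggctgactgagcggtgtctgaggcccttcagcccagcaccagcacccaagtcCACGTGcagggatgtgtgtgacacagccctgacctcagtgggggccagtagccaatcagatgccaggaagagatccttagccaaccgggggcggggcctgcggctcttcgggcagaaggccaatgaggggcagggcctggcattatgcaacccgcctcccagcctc
Per3: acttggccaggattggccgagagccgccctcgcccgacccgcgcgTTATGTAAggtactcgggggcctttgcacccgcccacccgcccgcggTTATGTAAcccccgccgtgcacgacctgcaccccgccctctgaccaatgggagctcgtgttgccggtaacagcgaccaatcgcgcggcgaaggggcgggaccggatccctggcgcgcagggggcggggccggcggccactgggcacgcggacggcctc
Cry1: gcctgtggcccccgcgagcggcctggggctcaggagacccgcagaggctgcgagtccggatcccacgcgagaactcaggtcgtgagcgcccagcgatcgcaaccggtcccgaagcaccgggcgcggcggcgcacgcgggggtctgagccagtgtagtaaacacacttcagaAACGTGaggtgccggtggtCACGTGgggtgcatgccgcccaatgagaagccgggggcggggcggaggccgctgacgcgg
Nr1d1: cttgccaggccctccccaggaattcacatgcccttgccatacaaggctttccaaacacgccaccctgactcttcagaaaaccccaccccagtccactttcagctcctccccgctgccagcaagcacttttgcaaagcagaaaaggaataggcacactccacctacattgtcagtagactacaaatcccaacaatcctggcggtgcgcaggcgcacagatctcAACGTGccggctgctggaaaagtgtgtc

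The printed Per1 window held an E-box that began 166 bases before the start, and Per3 held a pair of D-boxes, 205 and 158 bases before it. Another Per1 window, at chr11:69099902-69100151, held none of the motifs. Cry1 held an E-box 60 bases and an E′-box 79 bases before the start, and Nr1d1 an E′-box 28 bases before it. The receptor half-site was in none of the members' windows, and the windows of Clock, Npas2, Bmal1, Nr1d2 and Dbp held none of these letters. Over 32851 windows of the same length, 6.02% held an E-box, 3.85% an E′-box, 0.931% a D-box and 5.38% a receptor half-site. A match is a run of letters in this window and says nothing of elements elsewhere in the gene.

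The activator genes came first in the order of roles, and of these only Clock was deep enough to test. Clock, which encodes the DNA-binding partner of BMAL1, was at 22.6, 12.7, 8.08, 4.25 and 7.65 CPM in Female WT replicates 1 to 5. In Female KO it ran from 6.42 to 22.9 CPM with a median of 10.1, in Male WT from 4.51 to 11.1 with a median of 7.13, and in Male KO from 2.95 to 20.7 with a median of 6.5. The ranges of the groups overlapped in part, and Male WT had the narrowest range. KO differed from WT by 0.14 ± 0.39 (SE) on the log2 scale in females and by 0.29 ± 0.40 in males, with 95% intervals of -0.67 to 0.94 and -0.52 to 1.10. Neither difference passed edgeR's quasi-likelihood test (Benjamini-Hochberg adjusted p = 0.965 and 0.775). Clock overlaps the pseudogene Ube2n-ps1 on the same strand in the GENCODE M21 annotation. The pseudogene had 63.66 counts over all libraries, against 1126 for Clock.

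Bmal1, whose protein pairs with CLOCK or NPAS2, had 107.5 counts over the 23 libraries and between 0 and 16 in any one of them. Its summed counts were 0.822 CPM in Female WT (exact Poisson 95% interval 0.515 to 1.25), 1.08 in Female KO (0.728 to 1.54), 0.717 in Male WT (0.464 to 1.06) and, in Male KO, 1.23 (0.829 to 1.75). These intervals cover counting error only, and all 4 overlap. Npas2 had 23 counts in all, was at 0 in 9 libraries and reached 3 counts at most. Its summed level was 0.150 CPM in Female WT (0.0407 to 0.383), 0.324 in Female KO (0.148 to 0.614), 0.115 in Male WT (0.0312 to 0.294) and, in Male KO, 0.246 (0.0902 to 0.535). At this depth no difference between groups was detectable for either gene.

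**Figure D1:**
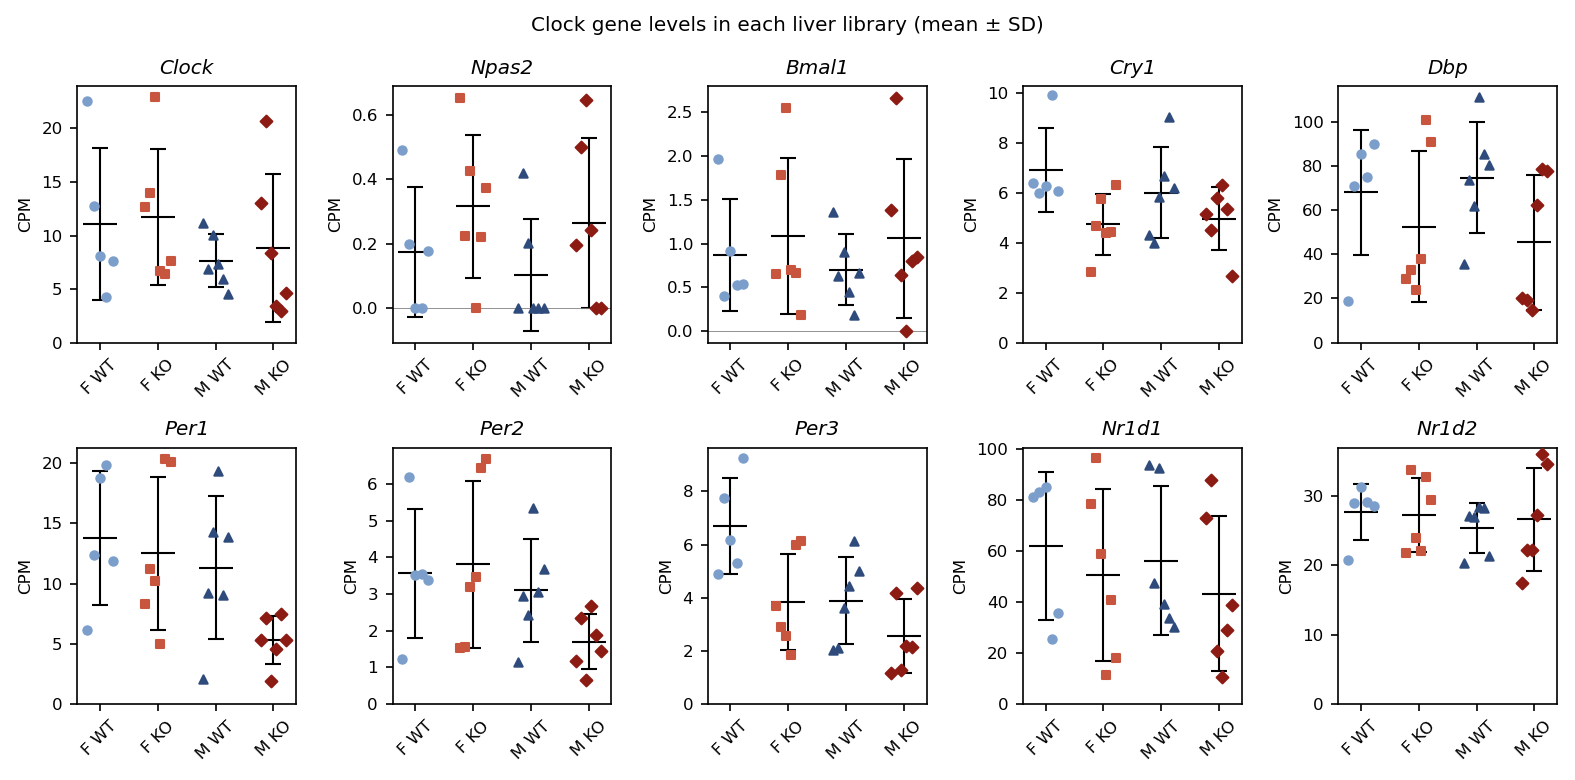
Level of each of the 10 clock genes in every liver library, in CPM as deposited, for Female WT (F WT, n = 5), Female KO (F KO), Male WT (M WT) and Male KO (M KO; n = 6 each). Points are libraries, and bars are the mean ± SD; the KO and WT groups of each sex overlap for every gene, and Per1 is lowest on average in Male KO, at 5.32 ± 2.01 CPM.

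Among the repressors, none of the 3 Per genes passed the test between KO and WT, and in males Per1 and Per2 had the largest differences of the 8 tested clock genes. Per1, which responds to glucocorticoids and cAMP as well as to the clock, was at 6.14, 12.3, 18.8, 19.8 and 11.9 CPM in Female WT replicates 1 to 5. It ran from 4.95 to 20.4 CPM in Female KO (median 10.7), from 2.05 to 19.4 in Male WT (median 11.5) and from 1.94 to 7.51 in Male KO (median 5.34). The highest Male KO library thus lay below the medians of the other 3 groups, although the Male KO range lay within that of Male WT apart from its lowest library. The lower end of the Male WT range was set by replicate 1, at 2.05 CPM. Dixon's criterion, given near the end, flagged this library as far below the other Male WT libraries. The group means were 13.8 ± 5.59, 12.5 ± 6.34, 11.3 ± 5.93 and 5.32 ± 2.01 CPM (SD) in the order of females (WT, KO) and males (WT, KO). In males KO was lower than WT by a log2 value of -0.96 ± 0.38 (SE; 95% interval -1.75 to -0.17; unadjusted p = 0.0185), which missed the threshold over all genes in edgeR (adjusted p = 0.306). In females the difference was -0.12 ± 0.35 (adjusted p = 0.966).

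Per2, the Per gene most closely tied to systemic timing cues in mouse liver, was at 1.23, 6.17, 3.51, 3.54 and 3.38 CPM in Female WT. It ran from 1.53 to 6.69 CPM in Female KO (median 3.32), from 1.14 to 5.35 in Male WT (median 3.00) and from 0.645 to 2.67 in Male KO (median 1.67). Its order of group means was Female KO, Female WT, Male WT and Male KO, at 3.81, 3.57, 3.10 and 1.69 CPM, and apart from Male WT and Male KO each neighbouring pair differed by less than the SD within the groups. The Per2 difference between KO and WT was 0.13 ± 0.38 in females and -0.71 ± 0.43 in males on the log2 scale (edgeR adjusted p = 0.965 and 0.467).

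Per3, whose protein is the least needed of the 3 for rhythms in mice, was at 4.91, 7.77, 6.18, 5.31 and 9.25 CPM in Female WT. It ran from 1.84 to 6.13 CPM in Female KO (median 3.30), from 2.05 to 6.13 in Male WT (median 4.04) and from 1.18 to 4.37 in Male KO (median 2.16). All 5 Female WT libraries lay above all 6 Male KO libraries, and the other groups overlapped with both. Female WT and Male KO differ in both sex and line, and how many of all tested genes separate them was not counted. KO was lower than WT by -0.75 ± 0.32 in females (unadjusted p = 0.0248, adjusted p = 0.485) and by -0.49 ± 0.35 in males (adjusted p = 0.539). Averaged over the sexes the Per3 difference was -0.62 ± 0.23 on the log2 scale, with a 95% interval of -1.10 to -0.14 and an adjusted p of 0.201 in edgeR. Per3 overlaps the protein-coding gene Camta1 on the same strand in the GENCODE M21 annotation, so strand cannot separate reads from the overlap. Camta1 had 562 counts over all libraries, against 498.5 for Per3.

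Cry1, the strongest repressor of the CLOCK and BMAL1 pair, was at 6.38, 5.98, 6.25, 9.91 and 6.05 CPM in Female WT. It ran from 2.83 to 6.32 CPM in Female KO (median 4.55), from 3.98 to 9.02 in Male WT (median 6.01) and from 2.67 to 6.31 in Male KO (median 5.25). Of the 6 Female KO libraries, 5 lay below all Female WT libraries. The Cry1 difference was -0.51 ± 0.23 in females, -0.24 ± 0.23 in males and -0.37 ± 0.16 averaged over the sexes, and the smallest of the adjusted p-values in edgeR was 0.272, for the average.

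Nr1d1 was at 81.0, 83.1, 85.1, 25.7 and 35.7 CPM in Female WT replicates 1 to 5. It ran from 11.3 to 96.3 CPM in Female KO (median 49.8), from 30.1 to 93.6 in Male WT (median 43.4) and from 10.7 to 87.7 in Male KO (median 33.9). Each group thus spanned at least 3.11-fold, and the KO groups 8.53-fold and 8.22-fold in females and males. The KO over WT difference of Nr1d1 was -0.30 ± 0.45 in females and -0.31 ± 0.43 in males (edgeR adjusted p = 0.922 and 0.783). Nr1d1 overlaps Thra on the opposite strand in the GENCODE M21 annotation, and whether the counting used strand is not given in the sources used here, so reads of the 2 genes may not be told apart.

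Nr1d2 was far steadier, at 20.7, 29.0, 31.3, 29.2 and 28.5 CPM in Female WT, 21.8 to 33.7 in Female KO (median 26.7), 20.3 to 28.4 in Male WT (median 27.1) and 17.5 to 36.1 in Male KO (median 24.8). No group spanned more than 2.07-fold, and the KO over WT difference of Nr1d2 was 0.00 ± 0.19 in females and 0.16 ± 0.18 in males, with 95% intervals of -0.38 to 0.39 and -0.22 to 0.53. Its counts were fractional in 17 of 23 libraries, so reads were divided in the counting, and what they were divided with is not given in the sources used here.

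Dbp, the output factor, was at 18.9, 70.9, 85.3, 75.0 and 89.8 CPM in Female WT replicates 1 to 5. It ran from 23.8 to 101 CPM in Female KO (median 35.2), from 35.4 to 111 in Male WT (median 77.2) and from 14.8 to 78.6 in Male KO (median 41.2). Each KO group fell into low and high libraries, 4 low in Female KO (at most 37.8 CPM) and 3 low in Male KO (at most 20.3 CPM), while Female WT and Male WT each had 1 low library, at 18.9 and 35.4 CPM. The KO over WT difference of Dbp was -0.33 ± 0.45 in females, -0.58 ± 0.44 in males and -0.46 ± 0.32 averaged over the sexes (edgeR adjusted p = 0.904, 0.565 and 0.489). Dbp overlaps Sphk2 on the opposite strand, with the same limit as for Nr1d1.

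Taking the 8 tested clock genes as a set, 0 of 8 were called in any comparison of genotype at an adjusted p under 0.05 in edgeR. Of all genes tested, 0.193% were called for KO against WT in females, 0.132% in males and 0.431% for the average of the sexes. At an unadjusted p under 0.05 there were 2 clock genes in females (Per3 and Cry1), 1 in males (Per1) and 3 for the average (Per1, Per3 and Cry1), where 8.84%, 13.1% and 15.6% of all genes stood below it. DESeq2 and limma-voom on the same genes called 0 of 8 as well. The median log2 difference of the 8 was -0.21 in females, -0.40 in males and -0.34 for the average, against medians of 0.01, 0.04 and 0.03 over all genes. The genes are not independent of each other, since they vary together as described below. For Per1 the call in males depended on the filter, since without a filter on low counts its difference of -1.01 had an edgeR adjusted p of 0.0191. In that setting 157 of 30807 genes were called.

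**Figure D2:**
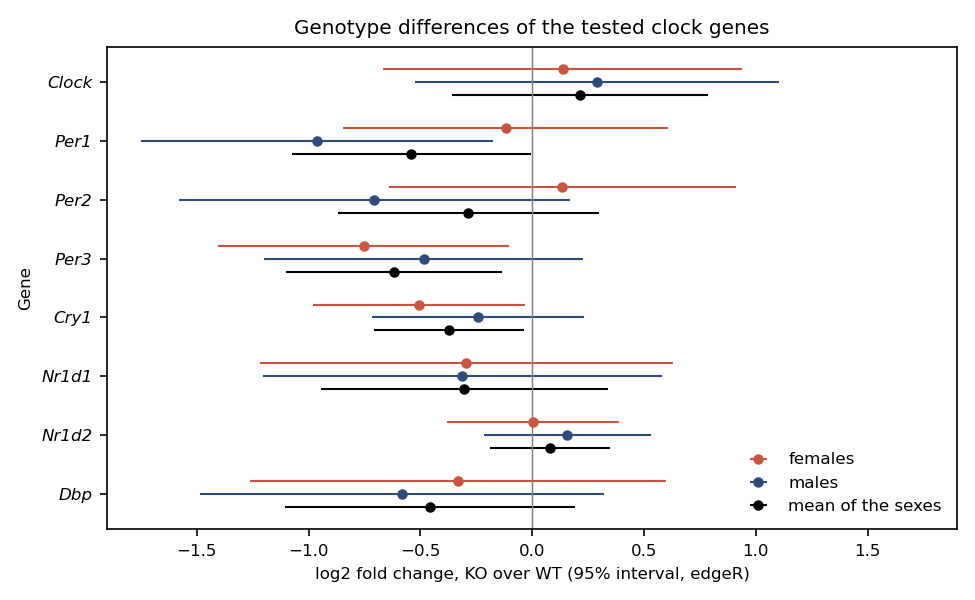
log2 fold change of KO over WT for the 8 tested clock genes in females, in males and averaged over the sexes, with 95% intervals from the edgeR fit. Per1, Per3 and Cry1 have intervals below 0 in at least one of the comparisons, and none of the 8 passes the test after adjustment over 11370 genes.

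The sexes were compared within each line. Again 0 of 8 clock genes were called by edgeR, DESeq2 or limma-voom, with an unadjusted p under 0.05 in edgeR for 1 of them in WT (Per3) and 2 in KO (Per1 and Per2), where 17.2% and 24.1% of all genes stood below it. Of all genes, 5.61% were called in WT and 7.44% in KO, so sex differences of other genes were common in these livers. In KO, Per1 was lower in males by -1.03 ± 0.39 on the log2 scale (unadjusted p = 0.0126, edgeR adjusted p = 0.0979) and Per2 by -0.97 ± 0.42 (adjusted p = 0.152), while Per3 differed by -0.40 ± 0.36. Leaving out Female KO replicate 4 moved Per1 to -1.17 with an edgeR adjusted p of 0.0424, past the threshold. In that setting 1577 of 11364 genes were called, against 846 of 11370 with all libraries. In WT the differences were -0.19 ± 0.35 for Per1, -0.13 ± 0.38 for Per2 and -0.67 ± 0.31 for Per3, whose adjusted p was 0.259. The genotype difference itself was compared between the sexes by an interaction term, for which 0 of 11370 genes were called, 0% of all genes, and 643 had an unadjusted p under 0.05, with 0 of the 8 clock genes among them. DESeq2 and limma-voom called 0 genes for it as well, and edgeR without a filter on low counts 25. Among those 8 the interaction ran from -0.85 ± 0.52 for Per1 (adjusted p = 0.934) to 0.27 ± 0.48 for Per3.

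Most of the clock genes differed widely between animals of 1 group. The SD of log2 CPM within groups was 0.93 for Dbp and 0.92 for Nr1d1, against a median of 0.32 over all 11370 genes, and both lay at the 99.3rd percentile. Per1 had an SD of 0.79 (98.3rd percentile), Clock 0.74 (97.5th), Per2 0.70 (96.7th) and Per3 0.58 (91.3rd). In all, 6 of the 8 lay over the 90th percentile, which stood at 0.56. Cry1 at 0.39 (65.8th) and Nr1d2 at 0.33 (52.7th) did not. Low counts widen the spread of a gene, and among genes of similar level Dbp, Nr1d1, Per1 and Clock stood at the 99.7th, 99.6th, 99.1st and 98.7th percentile, Per2 at the 93.4th and Per3 at the 87.9th. These ranks are a description, with no test.

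**Figure D3:**
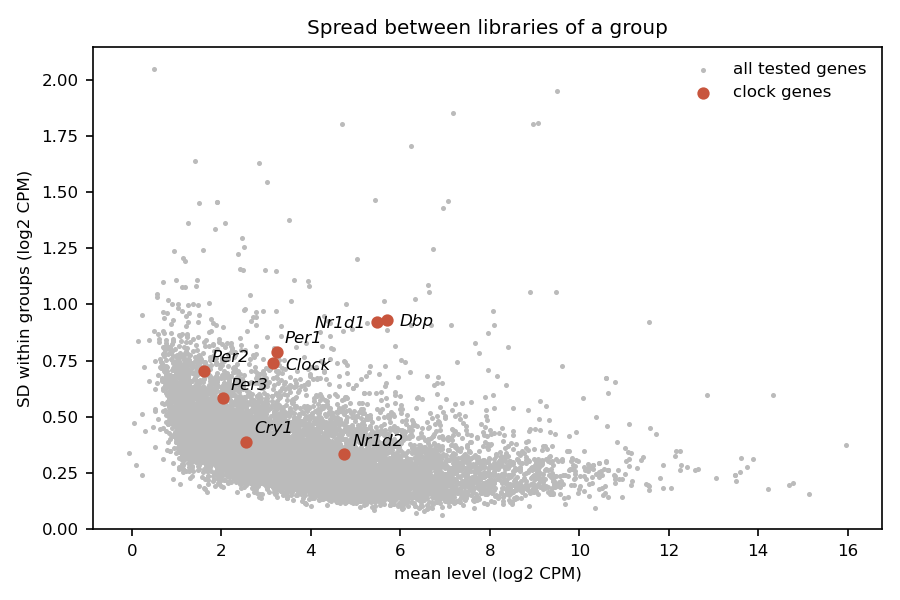
SD of log2 CPM between libraries of a group (y axis, after removing the 4 group means) against the mean level (x axis, log2 CPM) for the 11370 tested genes in grey and the 8 tested clock genes in red. Dbp and Nr1d1, at SDs of 0.93 and 0.92, stand well above genes of similar level, and Cry1 and Nr1d2 lie within the bulk.

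The deviations of the clock genes from their group means were related to each other. For each of the 28 pairs of tested clock genes, deviations from the group means were compared over the 23 libraries, with a two-sided permutation test within groups (100000 resamples) and Benjamini-Hochberg adjustment over the 28. The test called 16 pairs, 10 with a positive and 6 with a negative correlation, and 15 by Spearman's rho. With differences between the replicate numbers of the titles removed as well, 3 of the 16 were called, and 3 of the 16 changed sign. Clock and Dbp had the tightest relation, with Pearson's r = -0.85 and rho = -0.85 (adjusted permutation p = 0.0007, and r = -0.80 without the 2 libraries farthest from the median of Clock). Within the groups of 6 it was -0.72 in Male WT, -0.87 in Female KO and -0.93 in Male KO.

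On the side of Dbp stood Nr1d2 (r = 0.83, rho = 0.80, 0.82 without the 2 farthest libraries), Per2 (r = 0.76, rho = 0.69, 0.67), Per1 (r = 0.67, rho = 0.69, 0.62) and Per3 (r = 0.61, rho = 0.63, 0.54), with adjusted permutation p-values of 0.0007, 0.00168, 0.00329 and 0.0160. The Per genes moved with each other, at r = 0.71 for Per1 and Per2 (rho = 0.67), 0.58 for Per1 and Per3 (rho = 0.60) and 0.57 for Per2 and Per3 (rho = 0.59). On the side of Clock stood Nr1d1 (r = 0.70, rho = 0.69, 0.67 without the 2 farthest libraries, adjusted permutation p = 0.00481). Clock ran against Nr1d2 at r = -0.70 (rho = -0.63, adjusted permutation p = 0.00920), and Nr1d1 ran against Cry1 at r = -0.64 (rho = -0.65, adjusted permutation p = 0.0114). The paralogs Nr1d1 and Nr1d2 did not have a called relation (r = -0.32, adjusted permutation p = 0.250), nor did Nr1d1 and Dbp (r = -0.50, adjusted permutation p = 0.0533). Without Male WT replicate 1 the test called 9 of the 28 pairs. The permutation does not take the replicate numbers of the titles into account, and some of these relations were weaker within a range of those numbers, or not seen there, as for Clock and Dbp among the libraries numbered 4 to 6 (r = 0.21).

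**Figure D4:**
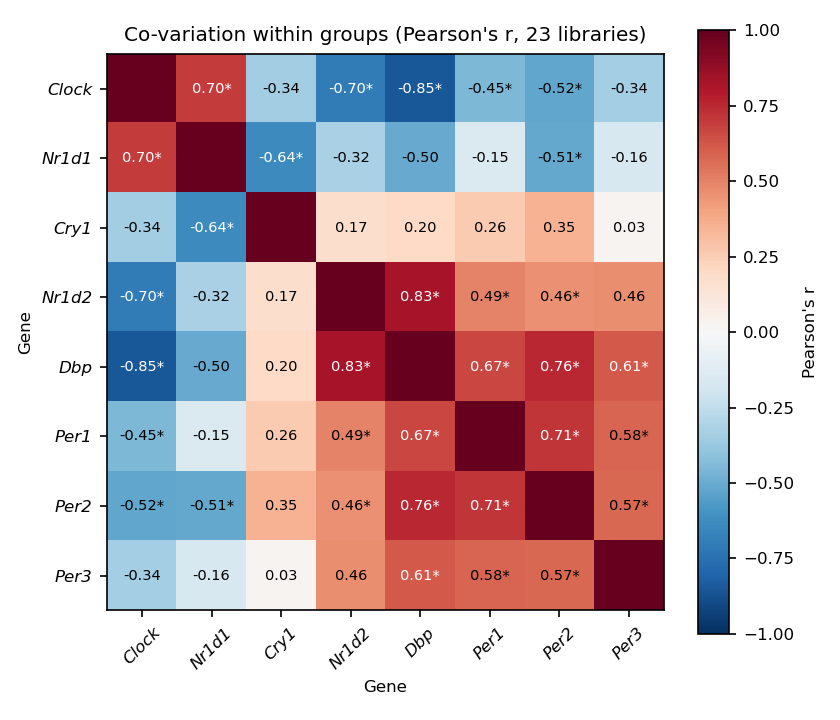
Pearson's r of deviations from the group mean (log2 CPM, TMM-scaled) for each pair of the 8 tested clock genes over 23 libraries; an asterisk marks pairs with an adjusted permutation p under 0.05. Dbp, Nr1d2 and the 3 Per genes form a block of positive values, from 0.46 to 0.83, and Clock and Nr1d1 (r = 0.70) have negative values with each of them.

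Of values other than clock genes, the log2 scaling factor of a library moved with the axis of Clock and Nr1d1 against Dbp. The factor had an r of 0.60 with Clock, 0.67 with Nr1d1 and -0.46 with Dbp, and the mitochondrial share of counts 0.34, -0.10 and -0.32. The summed level of the 6 sinusoidal endothelial markers, all tested, ran from 119 to 142 CPM in Female WT, 34.8 to 132 in Female KO, 87.8 to 116 in Male WT and, for Male KO, 62.8 to 132, and had an r of 0.77 with Nr1d1 but 0.34 with Clock and -0.18 with Dbp. The 6 Kupffer cell markers, of which 5 were tested, ran from 67.3 to 114, 34.3 to 164, 45.8 to 74.6 and 55.2 to 182 CPM in the same order of groups, with an r of 0.51 with Nr1d1 and -0.02 with Dbp. For the summed hepatocyte markers the r with Nr1d1 was 0.50, for stellate cell markers 0.28, for cholangiocyte markers 0.09 and for lymphocyte markers -0.46. With the scaling factor and the mitochondrial share regressed out of the deviations, 16 pairs were again called, but the pairs of Nr1d2 with Clock (r = -0.42) and with Per2 (r = 0.45) were no longer among them. The part of the marker levels in these relations was not tested. The Nr1d1 neighbour Thra had an r of 0.53 with Nr1d1 and 0.77 with Clock, and Sphk2 an r of -0.76 with its neighbour Dbp.

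**Figure D5:**
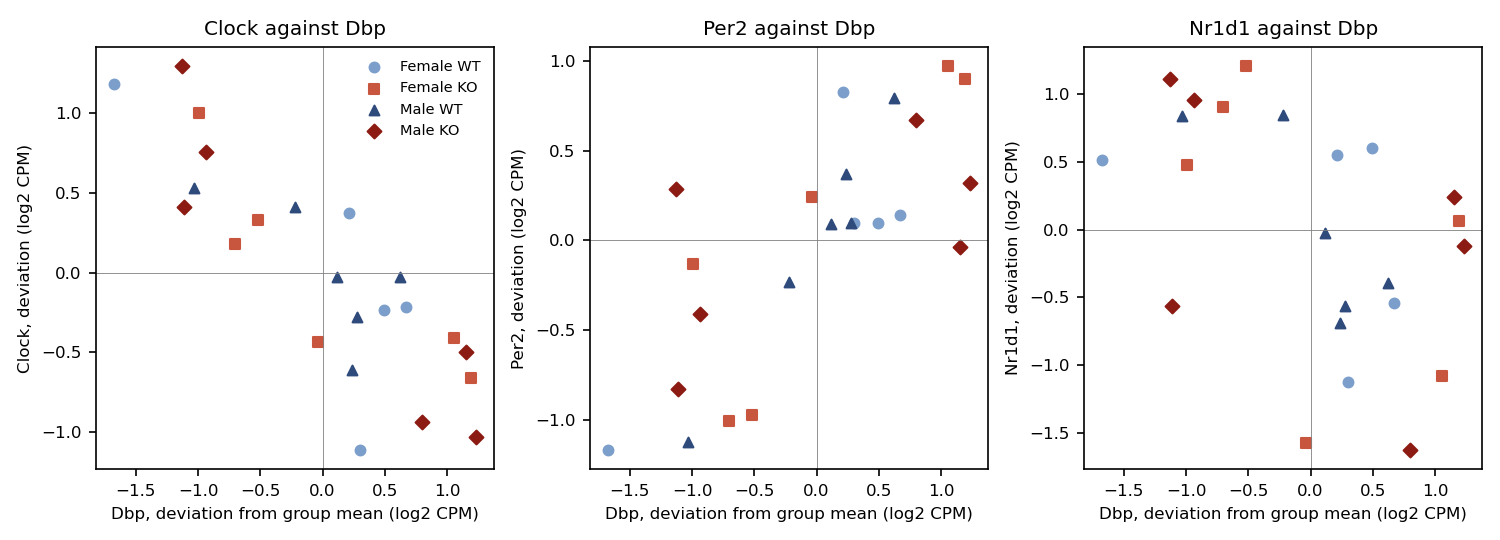
Deviation of Clock, Per2 and Nr1d1 (y axes) against the deviation of Dbp (x axes) from the group mean, in log2 CPM, with 1 point for each of the 23 libraries. Libraries low in Dbp are high in Clock (r = -0.85) and low in Per2 (r = 0.76), and the relation of Nr1d1 to Dbp is looser (r = -0.50).

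The ratio of Nr1d1 to Dbp counts was taken within each library. It ran from 0.172 to 4.57, a 26.6-fold range, and all 4 groups spanned much of it, from 0.342 to 4.29 in Female WT, 0.352 to 2.64 in Male WT, 0.198 to 2.95 in Female KO and 0.172 to 4.57 in Male KO. Libraries with low and with high replicate numbers in their titles lay apart on it, a pattern noticed after the values were seen. Replicate 1 of the 4 groups stood between 2.64 and 4.29, and the 11 libraries numbered 4 to 6 between 0.172 and 0.502. Replicates 2 and 3 lay between 0.645 and 1.5 in the WT groups and between 1.39 and 4.57 in the KO groups. The labels do not say what the numbers mark.

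The pair relations were therefore described again within the numbers 1 to 3 (12 libraries) and 4 to 6 (11 libraries), about each group's own mean in that range. Of the 16 called pairs, 15 had the same sign within the first and 14 within the second, although several were near 0, such as Per2 with Clock (-0.13 and -0.08) and with Nr1d2 in the second range (0.03). Nr1d2 and Dbp had an r of 0.68 and 0.74, Per1 and Dbp 0.70 and 0.82, Per1 and Per2 0.70 and 0.67, and Cry1 and Nr1d1 -0.44 and -0.61. Clock and Dbp had an r of -0.78 within the first range and 0.21 within the second, so the negative relation was not seen among the libraries numbered 4 to 6, and Clock and Nr1d2 likewise had -0.61 and 0.25. Clock and Nr1d1 fell to 0.30 and 0.25 in the 2 ranges. Nr1d1 turned about among the libraries numbered 4 to 6, where its r was 0.73 with Dbp and 0.83 with Nr1d2, against -0.03 and -0.34 within the numbers 1 to 3. These ranges were set after the ratio of Nr1d1 to Dbp was seen, which lay between 0.172 and 0.502 in the libraries numbered 4 to 6. A narrow ratio by itself pushes the r of these 2 genes up, so its value there is not an independent result.

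Genes beyond the 10 followed the same axis. Among tested genes with a mean of at least 5 CPM, the 5 whose deviations were most like those of Dbp over the 23 libraries were Usp2 (r = 0.95), Tef (0.92), Ccdc85b (0.89), Nrg4 (0.89) and Upp2 (0.89). Usp2 encodes a deubiquitinase and Tef a D-box factor of the same family as DBP. Usp2 ran from 11.0 to 131 CPM in Female WT and from 4.52 to 61.8 in Male KO. Most opposed to Dbp were Clpx (-0.92), Caprin1 (-0.90), Tubb2a (-0.89), Selenoi (-0.87) and Gldc (-0.86). Over all 11369 other tested genes, 3.76% had an r above 0.6 with Dbp and 3.96% an r below -0.6, so the axis was not limited to clock genes. The r values here and in the lists below were not taken within a range of the replicate numbers. With Bmal1 the 5 most alike were Fermt2 (r = 0.81), Eps8l2 (0.80), Gtf2ird1 (0.79), Atxn1 (0.76) and Pid1 (0.76), and the most opposed included Ahcy (-0.80), but at 16 counts or fewer per library these values are uncertain.

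The remaining genes of the loop were taken as a list of 18, of which 13 were tested, and 0 of the 13 were called in any of the 6 comparisons in edgeR, though 3 in females, 4 in males and 4 in the average of the sexes had an unadjusted p under 0.05 between KO and WT, beside 8.84%, 13.1% and 15.6% of all genes. The lowest adjusted p-values were those of Cry2, the second cryptochrome, and Rora, which activates Bmal1, in the average of the sexes. KO was lower than WT by -0.42 ± 0.12 for Cry2 and -0.46 ± 0.13 for Rora on the log2 scale, with unadjusted p-values of 0.0013 and 0.00125 and an adjusted p of 0.0959 for both. In the average of the sexes DESeq2 and edgeR without a filter called these 2, limma-voom 0, and limma-voom with sample weights 3, these and Csnk1d. With sample weights Rora and Csnk1d were also called in males. In males 11 of the 13 had negative differences, with a median of -0.29 against 0.04 over all genes. Csnk1d, the casein kinase that marks PER proteins for turnover, differed by -0.51 ± 0.14 in males (adjusted p = 0.173). Of the 13, 5 had an r above 0.6 with Dbp, among them Tef (0.92), Ciart (0.88), Hlf (0.71) and Cry2 (0.62), and none had an r below -0.6. Those counts stood beside 3.76% and 3.96% of all other tested genes. As the list was chosen with earlier results of these data known, they are not an independent result.

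Of 20 output genes of the liver clock, all tested, 0 were called between KO and WT in either sex or in the average by edgeR, DESeq2 or limma-voom, and 1 in each had an unadjusted p under 0.05 in edgeR, beside the same shares of all genes. Without a filter on low counts edgeR called Alas1 in females and in the average and Lpin1 in males. Their median difference was 0.11 in females and -0.16 in males. By sex, Elovl3, a fatty acid elongase that is also known for male-biased expression in mouse liver, was higher in males by 5.05 ± 0.61 in WT (adjusted p = 1.05e-06) and by 5.36 ± 0.57 in KO (adjusted p = 1.18e-07). Mfsd2a, a lysophospholipid transporter, was lower in males by -1.23 ± 0.32 in WT and -1.57 ± 0.32 in KO (edgeR adjusted p = 0.0186 and 0.00197). Alas1, the first enzyme of haem synthesis, was lower in males of the KO line by -1.41 ± 0.43 (edgeR adjusted p = 0.0433). Alas1 was not called there by limma-voom without sample weights, with the replicate block or in a fit of only the groups compared. Without a filter on low counts edgeR called it in WT as well. Those 2 of 20 in WT and 3 of 20 in KO stood beside the 5.61% and 7.44% of all genes.

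The output genes also varied with Dbp between animals. Of the 20, 9 had an r above 0.6 with Dbp and 4 had an r below -0.6, beside 3.76% and 3.96% of all other tested genes. The r values are over all libraries, and whether they hold within a range of the replicate numbers was not tested. The list was chosen with earlier results of these data known, so these counts are not an independent result. Apart from Usp2 and Upp2, the positive ones included Gys2, liver glycogen synthase (0.87), Wee1, a cell cycle kinase (0.85), Tspan4 (0.84), Por, the electron donor of the P450 enzymes (0.82), Cyp7a1, the rate-limiting enzyme of bile acid synthesis (0.80), and Nampt, the rate-limiting enzyme of NAD salvage (0.76). The 4 opposed ones were Leo1 (-0.84), Avpr1a, a vasopressin receptor (-0.82), Insig2, a brake on sterol synthesis (-0.73), and Elovl3 (-0.67). Clock gave nearly the mirror image, with Tspan4 (-0.91), Wee1 (-0.90) and Upp2 (-0.88) most opposed and Leo1 (0.81) most alike. Since Clock and Dbp had an r of -0.85 over the same libraries, the mirror image is not a separate result. Of the 20, 4 had an r above 0.6 with Clock and 8 an r below -0.6, beside 6.75% and 6.90% of all other tested genes.

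Genes that carry systemic timing cues such as glucocorticoids, feeding and temperature were the last list, with 15 of 16 tested. For these, 0 were called between KO and WT by edgeR, DESeq2 or limma-voom, with 6 in females, 2 in males and 8 in the average below an unadjusted p of 0.05 in edgeR, beside 8.84%, 13.1% and 15.6% of all genes. Without a filter on low counts edgeR called 5 in the average (Sgk1, Zbtb16, Hspa8, Hsph1 and Angptl4), and limma-voom with sample weights called Rbm3 in females and in the average. The sex comparisons called Ppargc1a, a coactivator of fasting metabolism, in both lines (-0.92 ± 0.21 in WT and -0.998 ± 0.22 in KO, edgeR adjusted p = 0.00552 and 0.00397). In KO they also called Fkbp5, a glucocorticoid-induced chaperone, at -1.23 ± 0.32 and Tat, tyrosine aminotransferase, at -0.52 ± 0.15 (adjusted p = 0.0168 and 0.0382). All were lower in males, and these 1 of 15 in WT and 3 of 15 in KO stood beside 5.61% and 7.44% of all genes. Only Angptl4, a fasting-induced lipase inhibitor, had an r above 0.6 with Dbp (0.62). The median r of the 15 was 0.15, against 0.37 for the output genes and 0.08 for the 13 tested genes of the rest of the loop. The same limits hold for these r values as for those of the output genes.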

How the data were processed

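Per the labels' protocols, liver was homogenised, RNA was purified on columns with DNase treatment, and a sequencing service made polyA 3′-end libraries for an Illumina instrument. The submitters' processing notes name STAR 2.7.11 with the build mm39 and, beside it, featureCounts, Subread 2.1.1, fastp 0.24.0, FastQC 0.12.1, MultiQC 1.32 and SAMtools 1.22.1, whose settings are not given in the sources used here. The authors deposited an expected count, which need not be whole, and a CPM value per gene and library for 65535 genes. The deposited counts were rounded to whole numbers for testing, and levels are the deposited CPM. Groups and replicate numbers come from the titles.

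All 23 libraries of the 4 groups entered 1 fit of the quasi-likelihood test of edgeR 4.0.16 (R 4.3.3) after TMM scaling, on the 11370 genes that pass filterByExpr at its default, with Benjamini-Hochberg adjustment over all of them with a threshold of 0.05. An SE is the log2 fold change over the square root of F. Co-variation of genes used TMM-scaled log2 CPM with a prior count of 2, less the group mean, in Python 3.11.15 with NumPy 2.4.6. Marker sums entered as log2 of the summed deposited CPM plus 1, less the group mean and without TMM scaling. Their r with a clock gene thus sets 2 unlike scales against each other. Alternatives were DESeq2 1.42.0, limma 3.58.1 (voom, with and without sample weights), median-of-ratios and upper-quartile scaling, no filter, a filter at a mean count of 50, fits of only the groups compared, a replicate block, CPM with a pseudocount of 1, and leaving out each library. The test scripts were checked on simulated data. The p-values measure the spread between these libraries, which the labels do not tie to named animals.

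Overlaps of genes came from the GENCODE M21 annotation on GRCm38, used for neighbours only, and promoter windows from RefSeq (GRCm38.p6). The clock genes, the other lists and the markers were chosen with earlier results of these data known. All 10 clock genes are named, any list gene may be named with its values, and the genes most like Bmal1 and Dbp are the 5 with the highest Pearson r at a mean of at least 5 CPM, with the 5 lowest and the anchor Clock added after values were seen. Some list members are not reported here. Same-numbered libraries of different groups deviated together in part, with 16 of 33 pairs of libraries at r above 0.1 and a range of -0.36 to 0.32. All 6 pairs of replicate 1 lay above it, from 0.20 to 0.32. Not every number did so and the labels do not say what a number marks, so the numbers were not taken to pair them.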

Additional observations from a re-analysis of the deposited data

Results flagged for a closer look

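In groups of 5 or 6 libraries, a gene's highest or lowest library was set against the rest by Dixon's criterion for a value far from the others. Of 32 combinations of gene and group checked, 4 had such a library, where chance gives about 1 in 20. Female WT replicate 1 was far below the other Female WT libraries for Dbp, at 18.9 CPM, and for Nr1d2, at 20.7 CPM. Male WT replicate 1 was far below the other Male WT libraries for Per1, at 2.05 CPM. Female WT replicate 4 was far above the other Female WT libraries for Cry1, at 9.91 CPM. Male WT replicate 1 is also the library without which the number of related clock gene pairs was lowest, at 9 of 28. The cause was not tested.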

How the results depend on the processing

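The count of clock genes called between KO and WT was 0 under every alternative run, except 1 in males without a filter on low counts (Per1, -1.01, adjusted p = 0.0191). For male against female it was 0 except 1 in KO without a filter (Per1, -1.06, adjusted p = 0.00261), 1 in KO without Female KO replicate 4 (a range of 0 to 1 over the libraries left out) and 1 in WT with the replicate block (Per3, -0.82, adjusted p = 0.0399). In that order, these settings called 999 of 30807, 1577 of 11364 and 594 of 11370 genes. Over all genes, the alternatives called 10 to 62 for KO against WT in females, 7 to 685 in males and 26 to 628 for the average. The reported 22, 15 and 49 compare with 48, 50 and 166 in DESeq2, 62, 157 and 244 without a filter, and 49, 685 and 628 with sample weights. At a mean count of 50 or more only 4 clock genes were tested.

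Several small differences changed sign without being called. Nr1d2 in females went from 0.00447 to -0.0166 without a filter, -0.00541 with limma-voom and -0.0254 with the replicate block. Clock with sample weights became -0.30 in males and -0.0557 for the average. Leaving out 1 library gave ranges in females of -0.32 to 0.0342 for Per1, -0.13 to 0.39 for Per2, -0.0863 to 0.0749 for Nr1d2 and -0.14 to 0.53 for Clock. Such ranges for Clock were -0.15 to 0.45 in males and -0.00236 to 0.41 for the average, and in WT by sex -0.37 to 0.0173 for Per1 and -0.32 to 0.12 for Per2.

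The 16 called pairs became 11 on deposited CPM with a pseudocount of 1 and 9 to 18 over the libraries left out. With the replicate block only 3 pairs were called, those of Dbp with Clock and Nr1d2 and of Clock with Nr1d2, and the sign changed for Clock and Per2 (0.0684), Per2 and Nr1d1 (0.0349), Per2 and Nr1d2 (-0.23), Nr1d1 and Nr1d2 (0.23) and Nr1d1 and Dbp (0.24). In the blocked fit the replicate number stands for a shared label only, and in 8 of 33 pairings of groups and numbers a library correlated best with its own number. With the scaling factor and mitochondrial share removed, an alternative chosen after seeing the data, Nr1d1 and Nr1d2 came to 0.0553. The causes were not tested. Depth limits Bmal1 and Npas2 most.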
